A study of Ovis aries with 15 samples.

Results

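The data described here compare kidney RNA of sheep fed aflatoxin B1 (AFB1) with that of control sheep (CON), using 9 of the 15 libraries of the series: AFB1 replicates 2 to 5 and CON replicates 1 to 5. The animals were male Dorper × Small-tailed Han crossbreds of 4 months. All groups received the same total mixed ration for 21 d, and the AFB1 group received 500 μg of AFB1 per kg of dry matter in it. Another group, given AFB1 with curcumin (AFB1_CUR), enters only where stated. Of 6 sheep per group, 5 were sequenced, each library from a separate animal by the study's methods, and the animals were penned in pairs. The labels and methods do not say which zone of the kidney the frozen portion came from, so differences in the amount of cortex, medulla or attached tissue between animals cannot be told apart from differences within cells. In bulk RNA, fewer cells of a type and less RNA per cell cannot be told apart.

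AFB1 replicate 1 was left out of the filter, the normalization and the fit because it held liver RNA. Its count of ALB, the hepatocyte gene for albumin, was 3190765, against 6 to 2846 in the other 4 AFB1 libraries and 88 to 626 in CON. Its count of UMOD, the uromodulin gene of the thick ascending limb, was 17, against 51891 to 253745 in the other 4. In the 9 libraries used, the labelled tissue was borne out by its markers: proximal tubule markers averaged 7.42 to 8.79 on the log2(FPKM + 1) scale and hepatocyte markers 1.54 to 2.57, where AFB1 replicate 1 stood at 3.29 and 10.53. Total counts were 50255295 to 68747047 in CON and 53609682 to 62999325 in AFB1. Mitochondrial genes took 12.7% to 17.9% of the counts in CON and 14.2% to 20.7% in AFB1. On the first principal component AFB1 replicate 2 lay at one end, at -48.9, and CON replicate 5 and AFB1 replicate 5 at the other, at 43.9 and 40.8.

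AFB1 is a mould toxin that liver and, to a lesser degree, kidney enzymes turn into a reactive epoxide, which binds DNA and glutathione. The proximal tubule, which makes up most of the renal cortex, takes up filtered solutes through brush border and basolateral transporters and is the nephron segment most exposed to filtered and secreted toxins. Immediate early genes such as FOS and EGR1 are transcribed within minutes of growth factor, injury or handling signals, whereas plasma cells, the antibody-secreting B cells, devote much of their RNA to immunoglobulin chains, so that few such cells weigh heavily in bulk RNA.

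Of 25592 genes in the table, 12946 had at least 1 FPKM (a fragment count scaled by transcript length and library size) in at least 4 of the 9 libraries and were tested. A gene is named called where edgeR gave an unadjusted p under 0.05 and a fold of more than 1.5. By this rule 271 genes were called, 2.09% of those tested: 105 were higher in AFB1 (0.811%) and 166 were lower (1.28%). An unadjusted p under 0.05 was reached by 672 genes, 5.19% of those tested. After Benjamini-Hochberg adjustment 1 gene passed 0.05, and DESeq2 on the same counts gave 35. With any 1 of the 9 libraries left out, the edgeR fit gave 0 such genes, with 505 to 1114 at an unadjusted p under 0.05. The calls are therefore given as estimates with their errors, and apart from that 1 gene no gene named here passed adjustment over all genes in the edgeR fit. Normalized counts (TMM-scaled CPM) did not overlap between the groups in 245 genes, 1.89% of those tested, of which 62 were also called, 11 higher and 51 lower. The median log2 fold change of all tested genes was 0.01.

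The gene that passed adjustment was LOC114111007, annotated as ribonuclease UK114-like (chr26:23034893-23035458), a member of the family of RIDA, which hydrolyses reactive imines. It was read 4, 0, 0, 2 and 1 times in CON replicates 1 to 5 and 158, 308, 302 and 1099 times in AFB1 replicates 2 to 5, or 4.82, 7.94, 9.09 and 29.6 FPKM (adjusted p = 0.0374). By the CON counts alone it would not have been tested, since it reached 1 FPKM only in the 4 AFB1 libraries. With any of these left out it was not tested, and without single CON libraries its adjusted p was 0.136 to 0.245. With no expression filter it was 0.0475, with filterByExpr 0.0550 and with the AFB1_CUR libraries added 0.492. A fitted fold is not given because 2 control libraries were at 0. A second entry of the family, LOC114111781 (chrX:81777844-81778489), named here after its values were seen, was at 14.04, 9.18, 10.5, 17.7 and 17.9 FPKM in CON and at 41.8, 66.9, 74.5 and 193 FPKM in AFB1 (log2 fold change 2.80 ± 0.47 (SE), unadjusted p = 0.000134, adjusted p = 0.435). Its groups did not overlap either, and AFB1 replicate 5 was highest for both entries. RIDA itself (chr9:79022971-79031839) was at 82.4 to 176 FPKM in CON and 68.7 to 99.1 FPKM in AFB1. The AFB1_CUR animals, which also ate AFB1, were split. Their libraries held 12, 178, 304, 6 and 2 counts of LOC114111007 and 17.8, 40.8, 74.1, 17.3 and 15.4 FPKM of LOC114111781, so replicates 2 and 3 were like the 4 AFB1 libraries and replicates 1, 4 and 5 like CON. AFB1 replicate 1 held 4 counts of the first entry. The entries carry related annotations, and how reads were divided between them is not given in the sources used here, so their separate levels are uncertain. The pattern differed between animals that ate AFB1, and the parts of the treatment and of inherited differences between animals were not tested.

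Of the immediate early genes 4 were lower in AFB1, as was CCN1, a target of YAP and SRF signaling. CCN1, a secreted matrix protein (chr1:62636068-62638968), was at 36.8, 43.9, 58.2, 14.4 and 17.1 FPKM in CON and 11.6, 7.23, 6.39 and 6.63 FPKM in AFB1 (log2 fold change -2.11 ± 0.40 (SE), unadjusted p = 0.000385, adjusted p = 0.713). No AFB1 library reached the lowest CON library. CCN1 was the 1 gene called of 19 tested YAP and SRF targets, whose median was -0.07, against 1.28% of all genes called lower. FOS, a subunit of the AP-1 transcription factor (chr7:84571490-84574889), was at 8.93, 23.4, 56.1, 6.05 and 6.36 FPKM in CON and 6.22, 4.14, 4.37 and 3.22 FPKM in AFB1 (log2 fold change -2.18 ± 0.66 (SE), unadjusted p = 0.00838, adjusted p = 0.939). Most of the difference in means came from CON replicates 2 and 3, and AFB1 replicate 2 lay among the lower CON values. EGR1, a zinc finger transcription factor (chr5:47499104-47501425), was at 22.1, 60.2, 80.2, 13.3 and 11.8 FPKM in CON and 9.69, 12.5, 6.91 and 5.88 FPKM in AFB1 (log2 fold change -2.10 ± 0.58 (SE), unadjusted p = 0.00446, adjusted p = 0.9004). Here AFB1 replicate 3 lay above CON replicate 5.

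NR4A1, an orphan nuclear receptor, was at 3.23, 5.14, 14.3, 1.36 and 1.75 FPKM in CON and 1.52, 1.87, 1.68 and 1.05 FPKM in AFB1 (log2 fold change -1.76 ± 0.63 (SE), unadjusted p = 0.0191, adjusted p = 0.939). CON replicates 4 and 5 lay within the AFB1 range. ATF3, a stress-induced bZIP factor, was at 4.32, 4.02, 11.1, 4.06 and 5.64 FPKM in CON and 3.81, 2.58, 3.04 and 3.86 FPKM in AFB1 (log2 fold change -0.81 ± 0.33 (SE), unadjusted p = 0.0324, adjusted p = 0.944), with little space between the groups. Without CON replicate 3, the log2 fold changes were -1.81 for CCN1, -1.30 for FOS, -1.60 for EGR1, -0.89 for NR4A1 and -0.43 for ATF3. CCN1, FOS, EGR1 and NR4A1 were then still called, whereas ATF3 was not, nor was it without AFB1 replicates 2, 3 or 4. FOS, EGR1, NR4A1 and ATF3 were the 4 members called of 26 tested in the immediate early list, whose median was -0.07. This count stands against 1.28% of all genes called lower. CON replicate 3 had the highest FPKM for 16 of the 26, against 818 of all 12946 genes, and without it the median was 0.11 with 3 called lower, where 1.51% of all genes were. JUN was at 13.8 to 33.1 FPKM in CON and 12.5 to 20.4 FPKM in AFB1, and JUNB at 12.4 to 44.2 and 12.95 to 24.04 FPKM, neither called. The time between death and freezing was not given in the sources used here, and its part in these values was not tested.

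**Figure D1:**
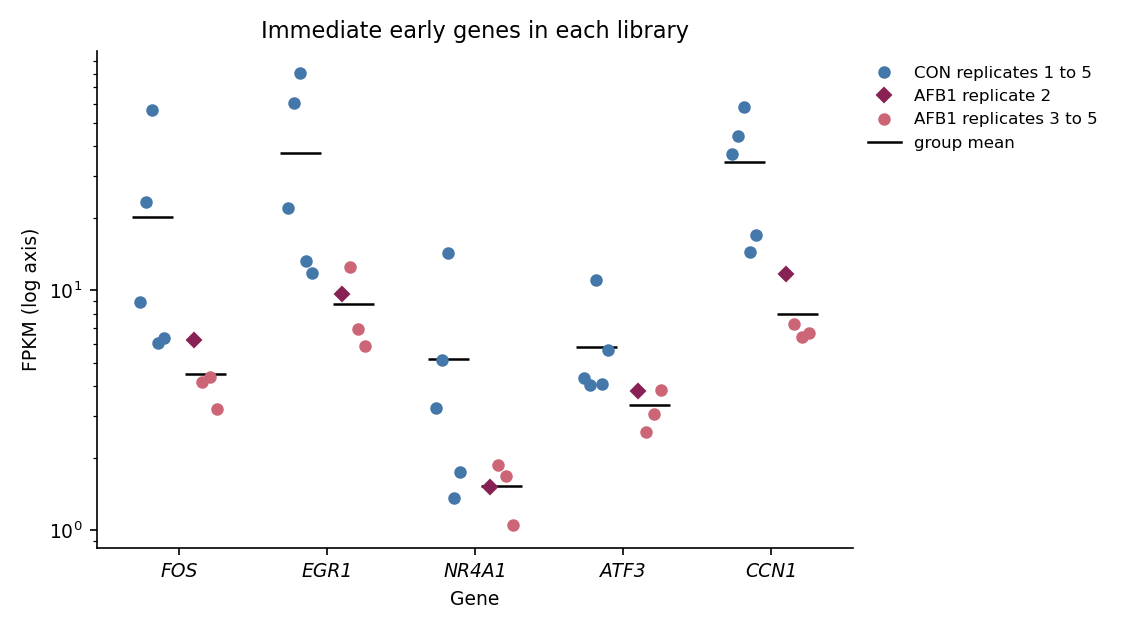
FPKM on a log axis of CCN1 and 4 immediate early genes in each of the 9 libraries, with a diamond for AFB1 replicate 2 and a bar at the group mean. CCN1 is separated between the groups, 14.4 to 58.2 FPKM in CON and 6.39 to 11.6 FPKM in AFB1, while the other 4 genes overlap or nearly touch and have their highest value in CON replicate 3.

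In the circadian clock, 1 gene of the repressor arm was called lower. NR1D1, the REV-ERBα repressor, was at 23.7, 13.3, 11.1, 12.9 and 5.94 FPKM in CON and 8.61, 5.78, 4.39 and 3.99 FPKM in AFB1 (log2 fold change -1.27 ± 0.36 (SE), unadjusted p = 0.00575, adjusted p = 0.939). CON replicate 5 lay inside the AFB1 range and the other 4 above it. TEF and DBP, bZIP factors of the clock output, and NR1D2, a paralog of NR1D1, had an unadjusted p under 0.05 but a fold under 1.5, so they were not called. TEF was at 25.1, 27.1, 23.6, 24.4 and 22.03 FPKM in CON and 20.6, 19.3, 18.5 and 18.8 FPKM in AFB1 (log2 fold change -0.35 ± 0.09 (SE), unadjusted p = 0.00312, adjusted p = 0.872), with no overlap. DBP was at 27.9 to 46.4 FPKM in CON and 21.2 to 31.99 FPKM in AFB1 (log2 fold change -0.51 ± 0.16 (SE)), and NR1D2 at 3.26 to 4.42 and 2.51 to 3.91 FPKM (-0.40 ± 0.14). BMAL1, the activator that NR1D1 represses, was at 0.9701 to 1.55 FPKM in CON and 1.37 to 1.87 FPKM in AFB1. In the clock list 1 of 16 genes tested was called, against 1.28% of all genes called lower. The hour of sampling was not given in the sources used here, and its part was not tested.

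Several transporter genes and the gene of a brush border enzyme were called lower in AFB1. None of them was in the proximal tubule marker list, and the nephron segment they came from was not tested. SLC34A3, the NaPi-IIc phosphate transporter (chr3:709616-714502), was at 84.4, 81.1, 81.9, 100.5 and 76.04 FPKM in CON and 41.4, 76.6, 38.6 and 48.9 FPKM in AFB1 (log2 fold change -0.74 ± 0.21 (SE), unadjusted p = 0.00495, adjusted p = 0.916). AFB1 replicate 3 stood at the level of the lowest CON library and the other 3 well below. SLC47A2, which exports organic cations into the urine, was at 291, 221, 329, 271 and 195 FPKM in CON and 92.4, 147, 98.3 and 206 FPKM in AFB1 (log2 fold change -0.93 ± 0.30 (SE), unadjusted p = 0.0109, adjusted p = 0.939), and only AFB1 replicate 5 reached the CON range. SLC25A45, a mitochondrial carrier, was at 11.5, 7.65, 7.32, 13.7 and 7.83 FPKM in CON and 2.38, 5.02, 2.903 and 4.69 FPKM in AFB1 (log2 fold change -1.36 ± 0.31 (SE), unadjusted p = 0.00135, adjusted p = 0.854), with no overlap.

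ANPEP, the brush border aminopeptidase N, was at 87.1, 97.8, 89.5, 156 and 218 FPKM in CON and 41.2, 89.4, 34.7 and 87.2 FPKM in AFB1 (log2 fold change -1.04 ± 0.40 (SE)). AFB1 replicates 3 and 5 lay among the lower CON values, and AFB1 replicates 2 and 4 below them. SLC7A9, the light chain of the cystine transporter, was at 39.5, 28.8, 26.2, 43.6 and 70.5 FPKM in CON and 16.1, 24.03, 23.1 and 29.3 FPKM in AFB1 (-0.85 ± 0.32), again with overlap. Its heavy chain partner SLC3A1 was at 64.4 to 210.2 FPKM in CON and 47.1 to 187 FPKM in AFB1 and was not called. SLC34A2, the NaPi-IIb phosphate transporter, was at 1.93, 3.31, 2.07, 1.88 and 3.74 FPKM in CON and 1.63, 1.29, 1.49 and 1.39 FPKM in AFB1 (-0.83 ± 0.23), with no overlap. QPRT, an enzyme of NAD synthesis from tryptophan, was at 71.1 to 111 FPKM in CON and 30.98 to 75.3 FPKM in AFB1 (-0.63 ± 0.26). ANPEP, SLC7A9 and QPRT were no longer called without AFB1 replicate 2, with log2 fold changes of -0.86, -0.68 and -0.41, while SLC34A3, SLC47A2, SLC25A45 and SLC34A2 were still called, with -0.62, -0.76, -1.17 and -0.85.

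The calls of proximal tubule marker genes depended on AFB1 replicate 5. None of the 12 proximal tubule markers tested was called, with a median log2 fold change of -0.30 against 0.01 over all genes. Without AFB1 replicate 5 the median was -0.69 and 6 of the 12 were called lower (2.18% of all genes in that fit), and without CON replicate 5 it was -0.11 with none called. LRP2 (megalin), the main endocytic receptor of the brush border, was at 52.4 to 134 FPKM in CON and 30.2 to 102 FPKM in AFB1, and SLC34A1, the NaPi-IIa transporter, at 96.4 to 346 and 53 to 287 FPKM. The marker average was 7.80 to 8.79 in CON and 7.45, 7.70, 7.42 and 8.69 in AFB1 replicates 2 to 5, so AFB1 replicate 5 was as rich in these transcripts as the richest CON libraries. With that average as a covariate, the log2 fold changes were -0.66 for SLC34A3, -0.84 for SLC47A2, -1.16 for SLC25A45, -0.58 for ANPEP and -0.44 for SLC7A9, and ANPEP and SLC7A9 were then not called. Of 16 genes tested for apical solute and water transport 2 were called lower, with a list median of -0.27, and of 15 for organic ion transport 1 was called lower, with a median of -0.32. Against these counts stand 1.28% called lower over all genes. Without AFB1 replicate 5, 5 of the 16 (median -0.62) and 6 of the 15 (median -0.74) were called lower, where 2.18% of all genes were. Other settings moved the medians of the 2 lists toward 0. They were -0.14 and -0.20 without AFB1 replicate 2 and -0.17 and -0.09 without CON replicate 5. With the proximal tubule covariate they were -0.02 and 0.01.

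**Figure D2:**
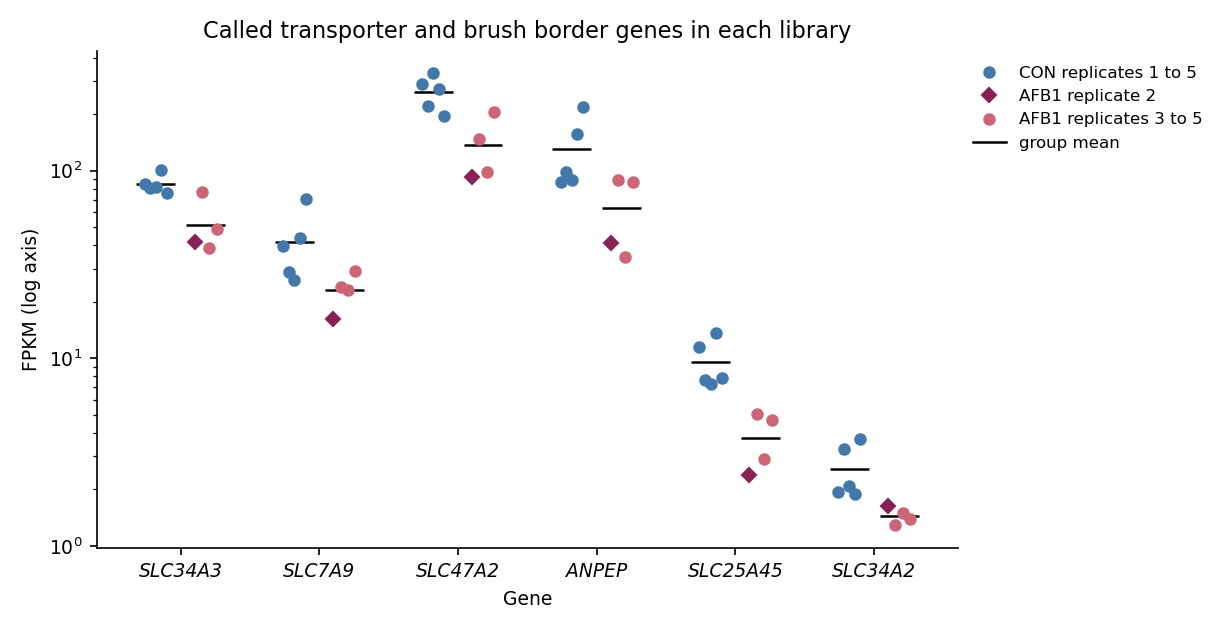
FPKM on a log axis of 6 transporter and brush border genes called lower in AFB1, in each of the 9 libraries, with a diamond for AFB1 replicate 2 and a bar at the group mean. SLC25A45 is separated, 7.32 to 13.7 FPKM in CON and 2.38 to 5.02 FPKM in AFB1, and AFB1 replicate 2 is the lowest library for SLC7A9, SLC47A2 and SLC25A45.

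Stress pathways, some of which the study examined in kidney, showed few calls. By RT-qPCR and Western blot, the study reported ATF6 and CHOP higher and NRF2 lower in AFB1 than in control kidney. HSPA1A, a stress-inducible HSP70 chaperone (chr20:26604033-26605958), was at 166, 224, 191, 206 and 259 FPKM in CON and 112, 69.6, 132 and 135 FPKM in AFB1 (log2 fold change -0.89 ± 0.23 (SE), unadjusted p = 0.00336, adjusted p = 0.872), and every AFB1 library lay below every CON library. Its level is uncertain because a neighbouring copy annotated as HSP70 1B, LOC121815981, can share reads with it. That copy, named after its values were seen, was at 77.9 to 124 FPKM in CON and 57.1 to 100.3 FPKM in AFB1 and was not called. HSPA1A was the 1 gene called of 20 tested chaperones, against 1.28% of all genes called lower. Of 22 genes tested in the unfolded protein response, which senses misfolded protein in the endoplasmic reticulum, none was called. The list median was 0.20, or 0.09 without AFB1 replicate 2, 0.32 without AFB1 replicate 4 and 0.07 without AFB1 replicate 5.

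HSPA5, the GRP78 chaperone, was at 128, 162, 163, 119 and 96.3 FPKM in CON and 181, 131, 115 and 167 FPKM in AFB1. ATF6, a sensor of the same response, was at 5.13 to 7.22 FPKM in CON and 5.42 to 8.76 FPKM in AFB1, and DDIT3 (CHOP), its death-promoting target, at 3.17 to 4.39 and 2.99 to 5.04 FPKM. The groups overlapped for all 3, with AFB1 replicates 2 and 5 above every control for HSPA5. XBP1, which this pathway splices and which plasma cells also need, was at 52.8, 51.96, 59.1, 49.3 and 48.1 FPKM in CON and 107, 57.8, 58.9 and 60.6 FPKM in AFB1 (log2 fold change 0.42 ± 0.17 (SE), and 0.21 without AFB1 replicate 2). AFB1 replicate 2 alone stood apart. PPP1R15A (GADD34), a phosphatase subunit that restores translation, was at 20.7, 22.1, 28.9, 19.5 and 20.7 FPKM in CON and 19.1, 18.7, 15.6 and 16.1 FPKM in AFB1 (-0.38 ± 0.12), lower in every AFB1 library but under the fold threshold.

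Of 19 NRF2 pathway genes tested none was called, with a median of 0.13, and of 18 antioxidant enzymes none, with a median of 0.01. Without AFB1 replicate 2, 2 NRF2 pathway genes, HMOX1 (0.72) and FTL (0.62), were called higher, where 0.627% of all genes were. With the proximal tubule covariate 2 were called higher and 1 lower, where 0.633% and 1.72% of all genes were. Without AFB1 replicate 5, 1 was called higher and 1 lower, where 2.27% and 2.18% of all genes were. The NRF2 list median was 0.04 without CON replicate 5 and 0.21 without AFB1 replicate 3. Members of these and related lists with an unadjusted p under 0.05 but a fold under 1.5 are given by their values. NFE2L2, which encodes NRF2, was at 46.3, 61.5, 60.3, 62.5 and 49.4 FPKM in CON and 69.7, 70.7, 80.1 and 63.2 FPKM in AFB1 (log2 fold change 0.34 ± 0.13 (SE), unadjusted p = 0.0252, adjusted p = 0.944). All 4 AFB1 libraries lay above the highest CON library on this scale. The study's RT-qPCR of NRF2 in kidney went the other way, lower in AFB1. GSR, which regenerates glutathione, was at 7.19, 7.05, 8.097, 8.56 and 9.55 FPKM in CON and 11.4, 9.104, 9.26 and 13.7 FPKM in AFB1 (log2 fold change 0.43 ± 0.18 (SE)), and TXNRD1, thioredoxin reductase, at 16.6 to 22.8 and 21.4 to 24.1 FPKM (0.23 ± 0.10). SOD2, the mitochondrial superoxide dismutase, was at 93.6, 85.2, 100.4, 83.7 and 121 FPKM in CON and 115, 136, 114 and 155 FPKM in AFB1 (0.43 ± 0.17). AHR, the receptor that senses aromatic xenobiotics, was at 2.39, 3.03, 2.37, 2.53 and 3.16 FPKM in CON and 4.23, 3.41, 3.53 and 3.05 FPKM in AFB1 (0.39 ± 0.12). SESN2, a target of NRF2, ATF4 and p53, had an estimate of the other sign and was not called, at 13.7, 13.5, 12.3, 16.6 and 16.5 FPKM in CON and 8.298, 7.52, 11.3 and 12.1 FPKM in AFB1 (-0.56 ± 0.20). None of these 6 estimates reached a fold of 1.5.

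Of the kidney genes named in the text of the study, a list that was chosen on these animals, 23 were tested and none was called. NFE2L2 was the 1 with an unadjusted p under 0.05, and the list median was 0.12. Without AFB1 replicate 5, 2 were called higher and 1 lower, where 2.27% and 2.18% of all genes were, and 1 was called higher without AFB1 replicate 2 (0.627%) or without CON replicate 5 (0.678%). No gene was called of 21 apoptosis genes, 22 of NF-κB and TNF signaling, 12 of aflatoxin and xenobiotic metabolism or 19 of oxidative phosphorylation, with medians of 0.10, 0.23, -0.18 and 0.07. In the same order, these medians were 0.05, 0.12, -0.03 and 0.18 without AFB1 replicate 2. They were 0.10, 0.37, -0.34 and -0.08 without AFB1 replicate 5. Without AFB1 replicate 5, 2 apoptosis genes and 4 of NF-κB and TNF signaling were called higher (2.27% of all genes in that fit) and 1 of xenobiotic metabolism lower (2.18%). AEN, a nuclease induced by p53, was the 1 called of 23 genes of the DNA damage response, against 0.811% of all genes called higher. It was not called without AFB1 replicate 2 (0.55) and kept its call in 13 of 24 alternatives. AEN was at 1.296, 1.81, 1.79, 1.001 and 1.32 FPKM in CON and 2.49, 1.99, 2.58 and 1.65 FPKM in AFB1 (log2 fold change 0.59 ± 0.19 (SE), unadjusted p = 0.0127, adjusted p = 0.939), and CDKN1A (p21), a main p53 target, was at 1.43 to 9.88 FPKM in CON and 3.89 to 7.04 FPKM in AFB1. Over the 33 pathway lists together, 13 of 543 distinct tested genes were called, 1 higher and 12 lower, or 0.184% and 2.21%, against 0.811% and 1.28% of all genes.

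Outside the lists, the lowest unadjusted p-values among lower genes that kept their call without AFB1 replicate 2 and with the leukocyte covariate belonged to GRB7, PRELID3A, CDK3, INCA1, IL17D, ZNF19 and RNF112. GRB7, an adaptor of receptor tyrosine kinases (chr11:39848104-39856413), was at 11.4, 11.3, 8.395, 9.502 and 11.7 FPKM in CON and 6.13, 5.62, 6.401 and 5.97 FPKM in AFB1 (log2 fold change -0.80 ± 0.13 (SE), unadjusted p = 8.14e-05, adjusted p = 0.435). Its values were tight within each group and far apart between them. PRELID3A, a mitochondrial lipid transfer protein, was at 2.79, 3.48, 2.73, 2.79 and 3.22 FPKM in CON and 1.74, 2.21, 1.84 and 1.77 FPKM in AFB1 (-0.67 ± 0.11). CDK3, a cyclin-dependent kinase, was at 20.2, 26.6, 21.4, 17.3 and 20.6 FPKM in CON and 11.5, 15.5, 15.03 and 11.1 FPKM in AFB1 (-0.68 ± 0.14), and INCA1, an inhibitor of CDK and cyclin A1 complexes, at 5.83, 6.18, 4.22, 4.203 and 4.43 and 3.35, 3.11, 3.12 and 2.35 FPKM (-0.74 ± 0.15). In each of these 4 genes every AFB1 library was below every CON library.

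IL17D, an interleukin 17 family cytokine, was at 1.26, 1.36, 1.35, 0.974 and 1.65 FPKM in CON and 0.783, 0.905, 0.458 and 0.615 FPKM in AFB1 (log2 fold change -0.95 ± 0.19 (SE)). It reached 1 FPKM in 4 CON libraries and no AFB1 library, so it was tested only through the group where it is high, and not with any of those 4 left out. PRIMA1, the membrane anchor of acetylcholinesterase, was at 3.03, 2.26, 1.103, 1.03 and 2.91 FPKM in CON and 1.13, 0.807, 0.874 and 0.909 FPKM in AFB1 (-1.16 ± 0.34), with CON replicates 3 and 4 near the AFB1 values. The zinc finger gene ZNF19 (-0.71 ± 0.15), the ubiquitin ligase RNF112 (-0.73 ± 0.16), the orphan receptor GPR135 (-0.83 ± 0.19) and TMEM140 (-0.88 ± 0.27) were also lower, with separated groups and mean levels between 0.727 and 5.81 FPKM. GPR135 too reached 1 FPKM only in CON. CHGA, chromogranin A of neuroendocrine cells (-1.29 ± 0.55), and HSD3B1, a steroidogenic enzyme (-0.67 ± 0.30), were the 2 genes called of 2 tested adrenal markers, where 1.28% of all genes were called lower. HSD3B1 was not called without AFB1 replicate 2 (-0.60) and kept its call in 8 of 24 alternatives, and neither gene was called without CON replicate 5. CHGA was at 2.34, 1.09, 0.807, 1.06 and 2.2 FPKM in CON and 1.23, 0.821, 0.358 and 0.149 FPKM in AFB1. HSD3B1 was at 1.06, 2.5, 2.49, 2.16 and 2.401 and 1.23, 1.602, 0.881 and 1.61 FPKM, and CON replicate 1 was as low as the AFB1 libraries. Adrenal marker averages were 0.42 to 0.53 in CON and 0.24 to 0.73 in AFB1, near 0 throughout.

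IL18BP, which neutralizes interleukin 18, was at 2.72, 4.32, 3.79, 2.18 and 2.17 FPKM in CON and 2.54, 1.73, 2.18 and 1.29 FPKM in AFB1 (log2 fold change -0.66 ± 0.27 (SE)), and was the 1 gene called of 14 tested interleukins and receptors, against 1.28% of all genes called lower. Without AFB1 replicate 5 it was not called and 5 others of the list were called higher, where 2.27% of all genes were. The remaining lower genes named by rule had lost their call without AFB1 replicate 2: the GABA transporter SLC6A11 (from -1.20 ± 0.53 to -0.96), the trefoil peptide TFF1 (from -0.90 ± 0.36 to -0.66), the corticotropin-releasing hormone receptor CRHR2 (from -1.35 ± 0.54 to -1.14) and LYNX1, a modulator of acetylcholine receptors (from -0.75 ± 0.32 to -0.55). All 4 overlapped between the groups.

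Among the higher genes, the call of a small group did not rest on AFB1 replicate 2. GRP, gastrin-releasing peptide (chr23:58543313-58556389), was at 27.01, 37.9, 25.3, 26.1 and 17.5 FPKM in CON and 36, 73.6, 63.2 and 47.6 FPKM in AFB1 (log2 fold change 1.05 ± 0.24 (SE), unadjusted p = 0.00136, adjusted p = 0.854). AFB1 replicate 2 was the lowest of its group and the only one inside the CON range. ITGB6, an integrin subunit of injured epithelia that activates TGF-beta (chr2:149499147-149642596), was at 1.12, 2.02, 1.02, 1.47 and 0.892 FPKM in CON and 2.89, 3.81, 2.01 and 2.46 FPKM in AFB1 (log2 fold change 1.09 ± 0.25 (SE), unadjusted p = 0.00149, adjusted p = 0.854), with AFB1 replicate 4 level with the highest CON library. APOD, a lipocalin that binds small lipids, was at 24.1, 34.3, 33.1, 30.2 and 21.9 FPKM in CON and 57.5, 35.1, 47.2 and 47.5 FPKM in AFB1 (0.70 ± 0.17). NR0B2 (SHP), a nuclear receptor that represses bile acid and lipid genes, was at 1.19, 1.499, 1.098, 1.19 and 0.579 FPKM in CON and 1.73, 2.37, 2.42 and 1.83 FPKM in AFB1 (0.91 ± 0.27). APOD and NR0B2 did not overlap.

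NUCB2, the precursor of nesfatin, was at 1.74, 1.72, 1.27, 1.08 and 0.912 FPKM in CON and 3.98, 1.96, 1.897 and 2.18 FPKM in AFB1 (log2 fold change 0.88 ± 0.26 (SE)), with no overlap. VNN2, a pantetheinase, was at 1.37, 1.58, 2.14, 0.985 and 1.79 FPKM in CON and 4.497, 3.88, 2.99 and 1.48 FPKM in AFB1 (0.99 ± 0.30). PTGFR, the receptor of prostaglandin F2α, was at 1.48, 3.01, 3.03, 2.03 and 1.78 and 4.08, 4.17, 4.68 and 2.57 FPKM (0.77 ± 0.23), and IMPACT, an inhibitor of GCN2, at 0.589, 1.19, 0.883, 1.02 and 1.13 and 1.95, 1.13, 2.495 and 1.703 FPKM (0.92 ± 0.27). In these 3 genes 1 AFB1 library lay inside the CON range. Without AFB1 replicate 2 the log2 fold changes were 1.22 for GRP, 1.10 for ITGB6, 1.01 for NR0B2, 0.92 for IMPACT, 0.82 for VNN2, 0.77 for PTGFR, 0.63 for APOD and 0.62 for NUCB2. S100B, a calcium-binding protein (0.86 ± 0.30), and TSPAN13, a tetraspanin (0.61 ± 0.17), had AFB1 replicate 2 as their highest library, at 10.2 and 14.2 FPKM, and had log2 fold changes of 0.64 and 0.46 without it, no longer called. EAF2, an elongation factor partner (1.39 ± 0.35), reached 1 FPKM only in the 4 AFB1 libraries, so it was tested only through the group where it is high, and not with any of those 4 left out.

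Of 44 leukocyte markers tested 6 were called higher, and the immunoglobulin entries described further on added 13, of the 105 higher calls, which were 0.811% of all genes. All 6 were highest in AFB1 replicate 2, and none was called without it. The lists do not hold every gene of leukocytes, so these counts are not the whole leukocyte share of the calls. SLAMF7, CD96 and HCST, outside the lists, were also called higher, at log2 fold changes of 1.01, 0.96 and 0.94. Leaving out AFB1 replicate 2 gave 0.45, 0.67 and 0.57, not called. JCHAIN, the joining chain of secreted IgM and IgA, was at 28.1, 27.2, 24.7, 18 and 6.27 FPKM in CON and 559, 16.8, 82.3 and 21.5 FPKM in AFB1 (log2 fold change 2.94 ± 0.94 (SE), unadjusted p = 0.0106, adjusted p = 0.939). MZB1, a chaperone of antibody assembly, was at 1.94, 3.11, 1.88, 0.5404 and 0.225 FPKM in CON and 77.6, 1.42, 6.97 and 1.99 FPKM in AFB1 (log2 fold change 3.75 ± 1.17 (SE), unadjusted p = 0.009596, adjusted p = 0.939). DERL3, which exports misfolded protein from the endoplasmic reticulum of plasma cells, was at 2.38, 3.84, 3.25, 1.81 and 0.611 FPKM in CON and 44.8, 2.4, 8.42 and 1.64 FPKM in AFB1 (log2 fold change 2.50 ± 0.88 (SE), unadjusted p = 0.0175, adjusted p = 0.939). In all 3, AFB1 replicate 2 was far above the other 8 libraries and AFB1 replicate 4 second, while AFB1 replicates 3 and 5 lay inside the CON range. Without AFB1 replicate 2 the log2 fold changes were 0.98, 1.21 and 0.82, and none of the 3 was called.

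Further B lineage genes were also highest in AFB1 replicate 2. CD27, a costimulatory receptor, was at 0.632 to 3.71 FPKM in CON, 18.6 FPKM in AFB1 replicate 2 and 1.88 to 3.25 FPKM in the other 3. BLNK, an adaptor of the B cell receptor, was at 1.099 to 4.24, 12.2 and 2.58 to 4.47 FPKM in the same order, and VPREB3, a pre-B cell receptor protein, at 1.36 to 2.34, 10.2 and 1.69 to 2.52 FPKM. CP, the copper oxidase ceruloplasmin, and SLC4A11, a borate transporter family member, which are not markers of leukocytes, were high in the same animal, at 9.48 and 5.31 FPKM against 1.13 to 2.13 and 0.7898 to 1.19 FPKM in CON. The T cell genes CD8B and IL7R were called higher (log2 fold changes 1.17 ± 0.48 and 1.17 ± 0.51 (SE)). CD8B was at 3.45, 2.58, 2.78, 1.25 and 1.25 FPKM in CON and 10.9, 5.77, 2.13 and 2.44 FPKM in AFB1, and IL7R at 2.096, 3.42, 2.52, 0.7496 and 0.811 and 8.77, 4.62, 2.08 and 2.23 FPKM, with AFB1 replicate 3 second in both. Without AFB1 replicate 2 neither was called, at log2 fold changes of 0.61 and 0.66. CLEC9A, a receptor of cross-presenting dendritic cells, was at 1.14, 2.76, 1.54, 1.25 and 0.802 and 3.23, 3.09, 1.97 and 1.9 FPKM (0.76 ± 0.32).

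The 4 leukocyte marker lists shared their highest and lowest libraries. B and plasma cell markers averaged 0.43 to 1.21 on the log2(FPKM + 1) scale in CON, 3.17 in AFB1 replicate 2 and 0.78 to 1.33 in AFB1 replicates 3 to 5. Pan-leukocyte markers averaged 2.03 to 3.21, 4.16 and 2.50 to 3.11 in the same order, T and NK cell markers 1.24 to 2.38, 3.29 and 1.72 to 2.38, and macrophage and dendritic cell markers 1.49 to 2.36, 3.23 and 1.65 to 2.49. Outside AFB1 replicate 2, the AFB1 libraries thus lay within the CON range or slightly above its top. AFB1 replicate 2 was the highest of the 9 libraries for 11 of 12 pan-leukocyte, 14 of 15 T and NK cell, 4 of 5 B and plasma cell and 11 of 12 macrophage and dendritic cell markers tested, by FPKM, where it was highest for 3482 of all 12946 genes. Without AFB1 replicate 5, 20 of the 44 markers were called higher, where 2.27% of all genes were. CON replicate 5 had the lowest average of the 9 in each of these 4 lists. The defining markers were present in every library: PTPRC (CD45) at 11.1, 11.5, 8.51, 6.16 and 3.24 FPKM in CON and 28.1, 11.7, 8.79 and 6.37 FPKM in AFB1, and CD79A, of the B cell receptor, at 3.17, 5.72, 3.55, 2.35 and 0.536 and 27.6, 4.55, 3.56 and 1.65 FPKM. Neither was called.

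Immunoglobulin chain entries, gathered by the deposited gene descriptions after the values were seen, made up 13 of the 105 higher calls, of 21 such entries tested, where 0.811% of all genes were called higher. Their reads summed to 1174, 1092, 875, 739 and 87.3 CPM (counts scaled to a common library total) in CON replicates 1 to 5 and to 17063, 707, 4140 and 765 CPM in AFB1 replicates 2 to 5. AFB1 replicates 2 and 4 stood above all controls, AFB1 replicates 3 and 5 lay within their range, and CON replicate 5 was lowest. AFB1 replicate 2 had the highest FPKM for 19 of the 21 entries, and without it 17 could be tested and 2 were called higher, where 0.627% of all genes were. Immunoglobulin genes have near-identical copies, so the separate values of these entries are uncertain. The gathering by description may miss antibody genes. LOC132658057, LOC121816989 and LOC121816875, on chromosome 17 as are several of the 21, were outside it and also called higher. Their log2 fold changes were 4.87, 4.38 and 3.39, and 0.57, 2.09 and 0.21 without AFB1 replicate 2, no longer called. Whether they are immunoglobulin genes was not tested.

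**Figure D3:**
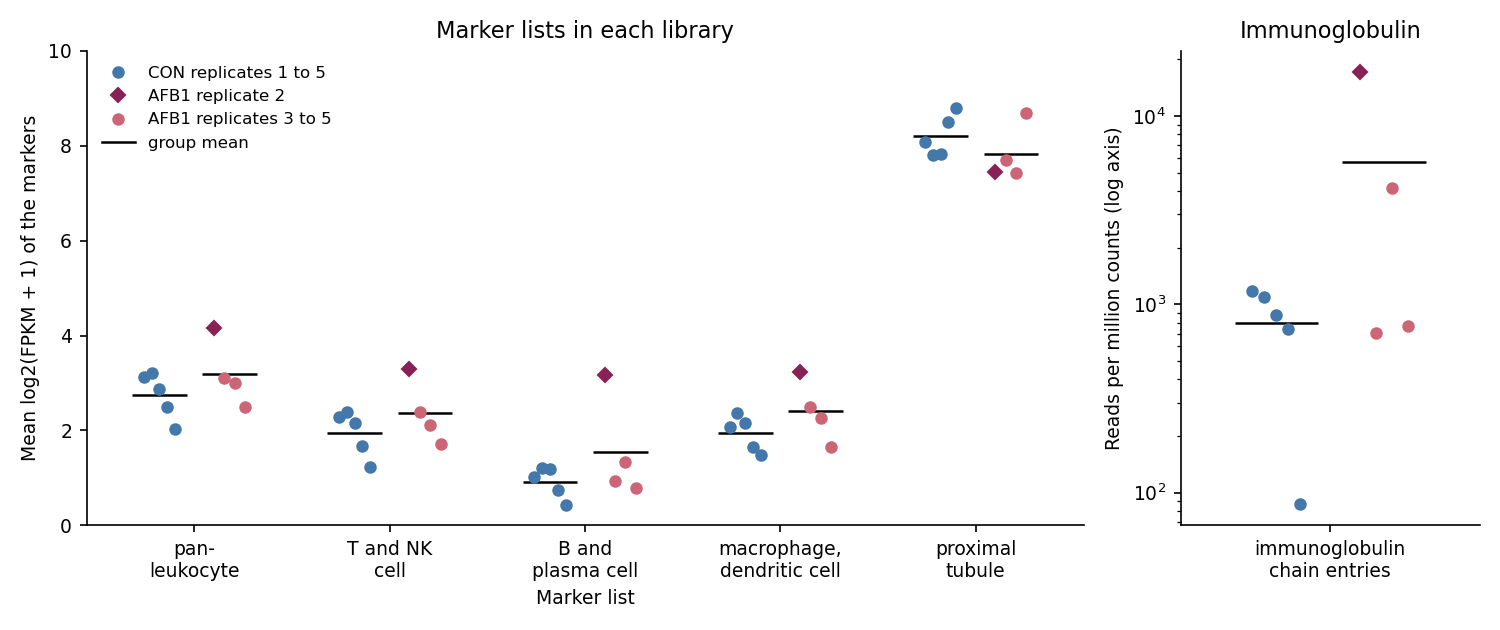
Left, mean log2(FPKM + 1) of 4 leukocyte marker lists and the proximal tubule list in each of the 9 libraries. Right, reads of immunoglobulin chain entries relative to the total count, on a log axis. Bars are group means and the diamond is AFB1 replicate 2, which is highest in all 4 leukocyte lists and reaches 17063 immunoglobulin CPM against 87.3 to 1174 CPM in CON.

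The share of calls that rested on AFB1 replicate 2 was counted in each direction. Among the 105 higher genes it was the top library for 64, against 11, 19 and 11 in AFB1 replicates 3, 4 and 5, by normalized counts. Of the 6810 tested genes that were highest in an AFB1 library, replicates 2 to 5 took 35.5%, 12.4%, 17.6% and 34.4%. Without it, 35 of the 105 were still called higher, 7 no longer passed the expression filter, and the median log2 fold change was 0.67 over those still tested, against 0.99 over the 105 in the full fit. Leaving out AFB1 replicates 3, 4 or 5 instead kept 71, 67 and 90 of the 105, and leaving out single CON libraries kept 61 to 75. Among the 166 lower genes AFB1 replicate 2 was the bottom library for 49, against 24, 41 and 49 in replicates 3, 4 and 5. Of the 6582 tested genes that were lowest in an AFB1 library, replicates 2 to 5 took 34.1%, 12.2%, 19.01% and 34.7%. Without it 104 were still called lower, within the 99 to 120 kept without another AFB1 library, and their median stayed at -0.74. None of the called genes that could still be tested changed sign. The fit without AFB1 replicate 2 called 253 of 12768 genes (1.98%), 80 higher and 173 lower, of which 114 had not been called with it. AFB1 replicate 5 moved the total more: without it 573 genes were called, 292 higher and 281 lower.

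**Figure D4:**
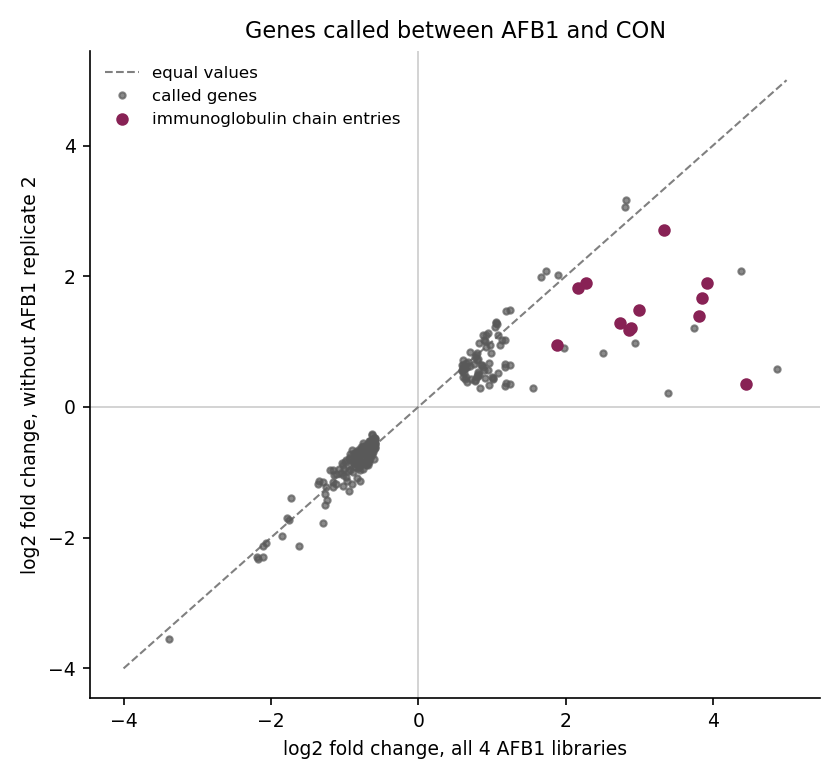
Log2 fold change of each called gene with all 4 AFB1 libraries (x axis) and without AFB1 replicate 2 (y axis), with immunoglobulin chain entries in dark red and a dashed line at equal values. Genes that could not be tested without that library are left out. Lower genes lie along the line, while most immunoglobulin entries and many higher genes lie below it.

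A leukocyte covariate was also fitted, without removing an animal. The mean log2(FPKM + 1) of the pan-leukocyte, T and NK, B and plasma, and macrophage and dendritic markers was 1.29 to 2.28 in CON and 3.44, 2.22, 2.17 and 1.65 in AFB1 replicates 2 to 5. This score contains called genes such as JCHAIN and MZB1 and mostly sets AFB1 replicate 2 apart. The fit is therefore not independent of leaving that library out, and likeness between the 2 is no separate support. With this score in the fit, 33 of the 105 higher and 108 of the 166 lower genes were called in the same direction, and the medians were 0.61 and -0.74. The fit called 348 genes (2.69%), 103 higher and 245 lower, of which 207 had not been called without the score. Of the higher genes, 30 were called both with the score and without AFB1 replicate 2, and of the lower genes 91. The score was not the only one with this effect. The proximal tubule average ran from 7.42 to 8.79 and was below every CON library in AFB1 replicates 2, 3 and 4. As a covariate it kept 32 of the higher and 115 of the lower genes, whereas an average of loop of Henle and principal cell markers kept 96 and 151. The libraries with the highest leukocyte score had low proximal tubule averages and the reverse, and their separate parts in the calls were not tested.

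The medians of the gene lists moved in both directions when AFB1 replicate 2 was left out. Without AFB1 replicate 2 the median log2 fold change went from 2.50 to 0.82 for B and plasma cells, from 0.63 to 0.13 for pan-leukocyte markers, from 0.56 to 0.28 for T and NK cells and from 0.59 to 0.27 for macrophages and dendritic cells. Cell cycle genes, of which none of 20 was called and AFB1 replicate 2 was highest for 19, went from 0.41 to -0.08. The proliferation marker MKI67 was at 1.34, 1.74, 2.52, 0.603 and 0.548 FPKM in CON and 8.15, 1.64, 1.497 and 0.328 FPKM in AFB1. Complement genes went from 0.35 to -0.02, interleukins and receptors from 0.37 to 0.09 and lymphoid stroma markers from 0.44 to -0.15. Intercalated cell markers (0.20 and 0.38), podocyte markers (0.03 and 0.09) and endothelial markers (0.02 and -0.01) are given in the same order, with 1 intercalated cell marker called higher without that library. Distal convoluted and connecting tubule markers went from 0.43 to 0.61, with 0 and then 3 of 6 called higher, and loop of Henle markers from -0.16 to -0.41, with 0 and then 2 of 9 called lower. Of all genes 0.627% were called higher and 1.35% lower in the fit without AFB1 replicate 2. Other libraries moved these 2 lists too. The distal convoluted and connecting tubule median was 0.18 without AFB1 replicate 4. The loop of Henle median was 0.02 without CON replicate 5 and -0.04 without AFB1 replicate 4 or 5.

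**Figure D5:**
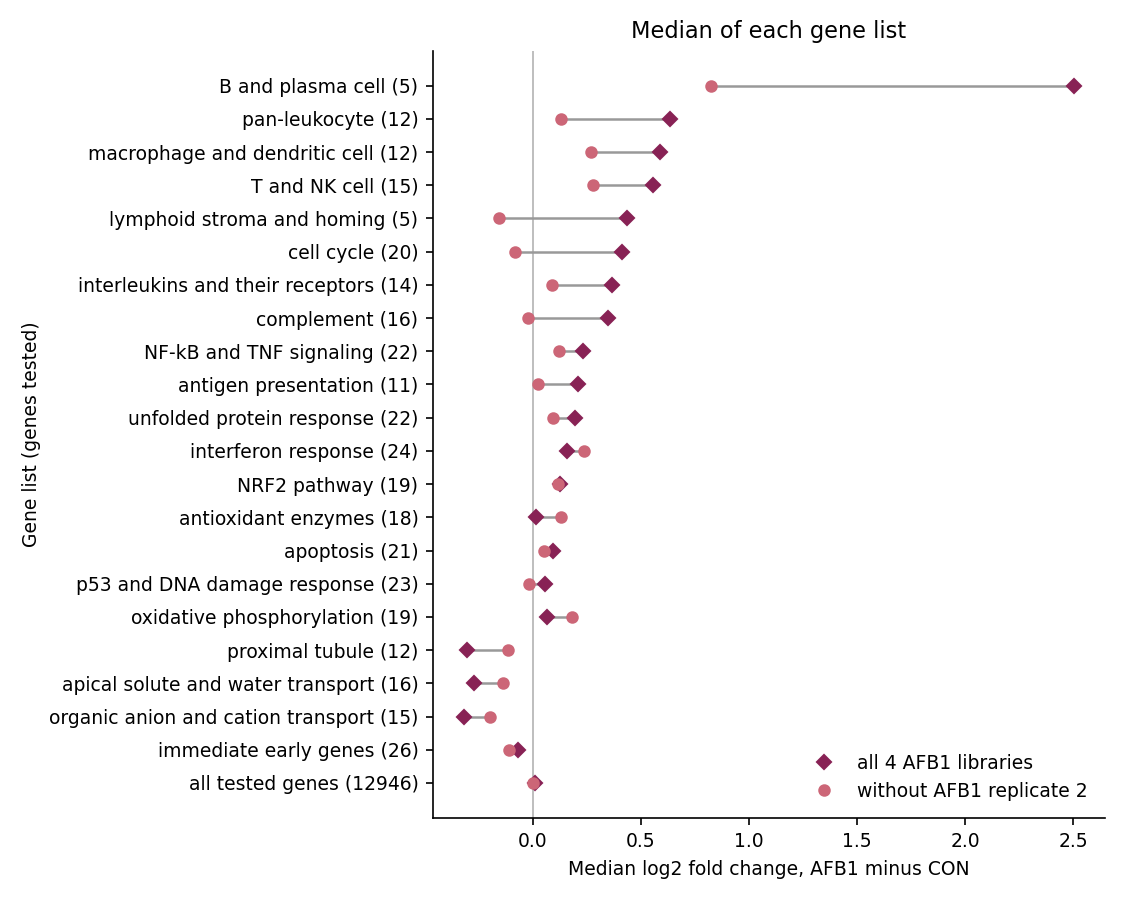
Median log2 fold change (AFB1 minus CON) of 21 gene lists and of all tested genes, with all 4 AFB1 libraries (diamonds) and without AFB1 replicate 2 (circles), with the number of genes tested in brackets. The longest line is that of the B and plasma cell list, from 2.50 to 0.82, while the NRF2 and immediate early lists hardly move.

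The pathway terms deposited with the genes showed where these antibody genes fall. Of the 136 tested genes with the KEGG term for calcium signaling, 18 were called, 13 higher and 5 lower, or 13.2% against 2.09% of all genes. Of these, 9 were immunoglobulin entries, which the annotation assigns to this term, and PTGFR, CHRM3, ADRB1, ERBB3 and PLCD3 were among the other 9, as was LOC114109090, an entry of uncertain product whose deposited GO terms are those of immunoglobulin. Of 92 genes under the NF-κB term 9 were called, all higher, of which 7 were immunoglobulin entries and the other 2 were BLNK and LOC114109090. The terms for TNF signaling (1 of 85, FOS), apoptosis (4 of 134), protein processing in the endoplasmic reticulum (4 of 184, HSPA1A and DERL3 among them), ferroptosis (1 of 49, CP) and glutathione metabolism (2 of 58, ANPEP among them) held few calls. None was made under arginine biosynthesis, fat digestion and absorption or biosynthesis of unsaturated fatty acids, with 16, 19 and 23 genes tested.

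Interferon response genes varied widely between animals of both groups. ISG15, a ubiquitin-like interferon product, was at 1.89, 13.3, 2.28, 0.406 and 75.7 FPKM in CON and 6.62, 77.2, 20.8 and 1.39 FPKM in AFB1, and MX1, an antiviral GTPase, at 4.24, 34.3, 6.33, 4.08 and 117 and 16.4, 95.5, 34.05 and 5.29 FPKM. CON replicate 5 and AFB1 replicate 3 were the 2 highest libraries for both genes. Of the 24 interferon genes tested, 10 were highest in CON replicate 5 and 11 in AFB1 replicate 3. None was called, and the list average ran from 1.81 to 4.18 in CON and from 1.82 to 4.28 in AFB1.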

How the data were processed

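Poly(A) RNA of kidney portions was made into dUTP-stranded libraries and sequenced by the authors as paired ends. Per the labels' processing notes, cutadapt 1.9, HISAT2 2.2.1, StringTie 2.1.6, DESeq2 and edgeR were used. The genome build is not given in the sources used here, but 24831 of 24930 symbols shared with RefSeq annotation of ARS-UI_Ramb_v3.0 had the same start and end, so coordinates and chromosome names follow it. The authors deposited raw read counts per gene and FPKM values for each library, with gene descriptions and KEGG terms. Counts were tested and FPKM were used for the filter, for levels and for marker averages, taken as the mean log2(FPKM + 1). Whether the counting used strand is not stated.

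Counts of the 9 libraries were fitted with the quasi-likelihood test of edgeR 4.0.16 (TMM scaling, R 4.3.3), with group as the only term, in genes of at least 1 FPKM in at least 4 libraries. All p-values are two-sided, and adjustment was over the 12946 genes tested. Calls needed an unadjusted p under 0.05 and a fold above 1.5, the screening conditions of the study. Alternatives used limma 3.58.1, DESeq2 1.42.0, other scalings, filters and covariates, a replicate block and each library left out.

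The libraries, gene lists and rules were chosen with earlier results of these data known. Genes were named by rule: those passing adjustment, at most 10; up to 10 per direction with the largest fold among called genes whose groups did not overlap; 8 per direction with the lowest p among genes also called without AFB1 replicate 2 and with the leukocyte covariate; 8 per direction that lost most without AFB1 replicate 2; called members of the lists; and the kidney genes named in the study's text. Entries without a symbol were named only under the first rule, or as stated. Pathway counts carry no test. No sequences were printed, since none were among the files used here. Replicate numbers were not used as pairs, since they share no stated link and the check given with the alternatives was mixed. Numbers 2 and 5 correlated best with their own number, and 3 and 4 did not.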

Additional observations from a re-analysis of the deposited data

Results flagged for a closer look

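Within the groups of 4 or 5 libraries, 156 sets of values on the log2(FPKM + 1) scale were examined for a single library far from the rest. Of these 7 were flagged, which is not above the rate of about 1 in 20 that chance gives. AFB1 replicate 2 was the lone high library of its group for S100B (10.2 FPKM), SLC4A11 (5.31 FPKM), neutrophil markers (an average of 1.08 on the log2(FPKM + 1) scale), adipocyte markers (2.19) and urothelial markers (0.492). CON replicate 1 was the lone low control for HSD3B1 (1.06 FPKM). AFB1 replicate 5 was the lone low library of its group for endothelial markers, with an average of 3.88.

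The library left out of the comparison, AFB1 replicate 1, carried an ALB count of 3190765, above that of every other library.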

How the results depend on the processing

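Of 1625 log2 fold changes of 67 genes under the alternatives, 1369 kept direction and side of the threshold, 241 lost the call and 13 gained it. The exceptions in direction were TMEM140 (0.35) and SLC6A11 (2.28), both with AFB1 replicate 1, the library with liver RNA, put back. FOS, EGR1, CCN1, GRB7, SLC25A45, HSPA1A and LOC114111781 were called in each of the 25 alternatives. The 271 calls became 888 with no filter on low values and 568 with filterByExpr, which test more genes, and 91 with the FPKM minimum of 5, which tests fewer. They became 116 with limma on log2(FPKM + 1) and 209 with limma on log2(FPKM + 0.1), 418 with AFB1 replicate 1 put back (310 higher and 108 lower), and 440 with the loop and principal cell covariate, and the causes of these 4 were not tested. Leaving out each library gave 223 to 573 calls, the highest without AFB1 replicate 5. Of the calls 38.7% were higher, against 51.1% with no filter and 29.2% with limma on log2(FPKM + 0.1). The extremes were 26.9% with the proximal tubule covariate (82 higher and 223 lower) and 74.2% with AFB1 replicate 1 put back. Genes passing adjustment numbered 1, and 35 with DESeq2 (30 lower and 5 higher, 24 of them among the 271), 2 with each of the 3 covariates, and 0 with filterByExpr, the FPKM minimum of 5, limma on log2(FPKM + 1), the AFB1_CUR libraries, AFB1 replicate 1 put back or the replicate block, and 0 to 0 without each library. Without each AFB1 library and with the FPKM minimum of 5, the 1 gene was not tested.

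With the replicate number as a block 424 genes were called, 228 higher and 196 lower, and 0 passed adjustment. The numbers share no stated link, and same-numbered libraries correlated by 0.388, 0.0632, 0.0211 and 0.373 for numbers 2 to 5, with numbers 3 and 4 under 0.1 and not best with their own, so the pairing was not used. Of 21 lists with a median past 0.2, 4 changed sign without AFB1 replicate 2, 8 with the leukocyte covariate and 4 with the proximal tubule covariate. Reads of near-identical immunoglobulin, HSP70 and UK114-like copies limit the values of single entries, and 4 against 5 animals limit every call.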
